A study of Mus musculus with 7 samples.

Results

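Vascular amyloid was profiled at 2 sites of the same brains, in the leptomeninges and on penetrating vessels, in 4 PDAPP mice given the anti-Aβ antibody 3D6. The 96 regions of these mice, of 166 in all, were taken by the labels' region numbers, 1 to 12 as leptomeninges and 13 to 24 as penetrating vessels, which gives 48 regions of each site. PDAPP mice express a mutant human amyloid precursor protein from a promoter active in neurons and deposit amyloid in brain tissue and vessel walls, and all mice compared here carry this transgene. The 3D6 mice received 25 mg/kg of the IgG2b antibody in 1 subcutaneous injection per week for 3 months, from 23 to 26 months of age. The other 3 mice received an IgG2a control antibody at 50 mg/kg in 2 injections per week over the same 3 months, so isotype, dose and schedule also separate the groups. No mice without the transgene or without injections were analysed here.

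The leptomeninges are the arachnoid and pia, thin membranes that carry the surface arteries of the brain in collagen-rich tissue bathed in cerebrospinal fluid. Penetrating vessels branch from these arteries into the cortex, where glia surround them and neural tissue fills the space beyond the wall. Amyloid in the wall of either is called cerebral amyloid angiopathy, and macrophages of the brain borders sit along vessels at both sites.

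Each region was a circle of 100 μm centred on vascular amyloid and chosen with fluorescent antibodies to amyloid and laminin. In the GeoMx assay, antibodies carry oligonucleotide tags that ultraviolet light frees from such a circle for counting, so a value sums over all cells in it. More cells carrying a protein and more protein per cell cannot be told apart. The panel held 25 target proteins, 3 housekeepers and 3 negative controls, which are rat and rabbit immunoglobulins raised against no mouse protein. A level is a protein's count over the geometric mean of these controls in its region, on the log2 scale. For each mouse and site the regions were averaged, 12 of them in the 3D6 mice. A site difference is the leptomeningeal minus the penetrating level of the same mouse, so values above 0 mean more protein in the leptomeninges.

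The median region total was 11573 counts in the leptomeninges (range 3665 to 30248) and 9650 on penetrating vessels (2571 to 27759). The median region held 34.5 and 29.5 nuclei. Mouse 72 had more nuclei per region than the other mice, at a mean of 104 and 100.6. Mouse 77 had 21.5 and 28.33, mouse 81 had 34.33 and 24.08, and mouse 83 had 38.42 and 27.25. The warning for few nuclei was on 7 leptomeningeal and 10 penetrating regions, 10 of these 17 in mouse 77. In mean log2 count the negative controls stood 0.22 ± 0.30 (SD, n = 4) higher in the leptomeninges (exact sign-flip permutation test, p = 0.25). With 4 mice this test cannot go below 0.125. Across the 25 targets, levels reached 233 times the negative controls in the leptomeninges and 145 times on penetrating vessels. PD-1, CD4, CD163, CD28 and FOXP3 lay below the negative controls at both sites, with under 10 counts in 55 to 74 of the 96 regions. The panel holds no protein specific to meningeal cells or to neural tissue, so the site names could not be checked against such a marker. SMA, the actin of vascular smooth muscle, stood at 233 and 102 times the negative controls, and endothelial CD31 at 28.6 and 12.7 times.

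The sites of a mouse were read on the same instrument lanes, but their counts carry different calibration factors. Region 1 shared its lane with region 13, region 2 with region 14, and so on, in 48 of 48 such pairs. After division by the positive-control factor of the region, 2960 of 2976 values were whole multiples of 1 number per probe, mouse and site, within a relative tolerance of 1e-05. This number, the calibration factor of a probe, ran from 0.665 to 2.13, and for 0 of the 31 probes was it the same at both sites of a mouse. Mice 77 and 81 shared their factors (30 of 31 probes in the leptomeninges, 31 of 31 on penetrating vessels), and no other 3D6 mice shared any. The factors were inferred from the values, and no label or header gives them or a reason for the change between sites. Site and set of factors cannot be told apart within a mouse. Mean site differences of 24 targets and of the housekeepers, and the count of contrasts with IgG mice, are also given below with these factors removed. The divisions by single housekeepers are not.

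Around leptomeningeal amyloid of 3D6 mice, fibronectin, CD45, SMA, CD31 and F4/80 were higher than around penetrating vessels, and CD14 was lower. Fibronectin differed most, at 7.15-fold, and CD14 was the only protein past the threshold in the other direction, at 0.273 times its penetrating level. That made 5 of 25 targets higher (20.0%) and 1 of 25 lower (4.00%), at an adjusted p under 0.05 from limma on the 4 paired differences. Of the other 19 targets, 11 had means above 0 and 8 below. The median site difference of the 25 targets was 0.11. Over all 25 targets, 6 passed and 9 had an unadjusted p under 0.05. In 11 targets all 4 mice went the same way, 8 higher and 3 lower. In 5 of 25 targets, fibronectin, CD45, F4/80, CTLA4 and CD14, the sites did not overlap over the mice.

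**Figure D1:**
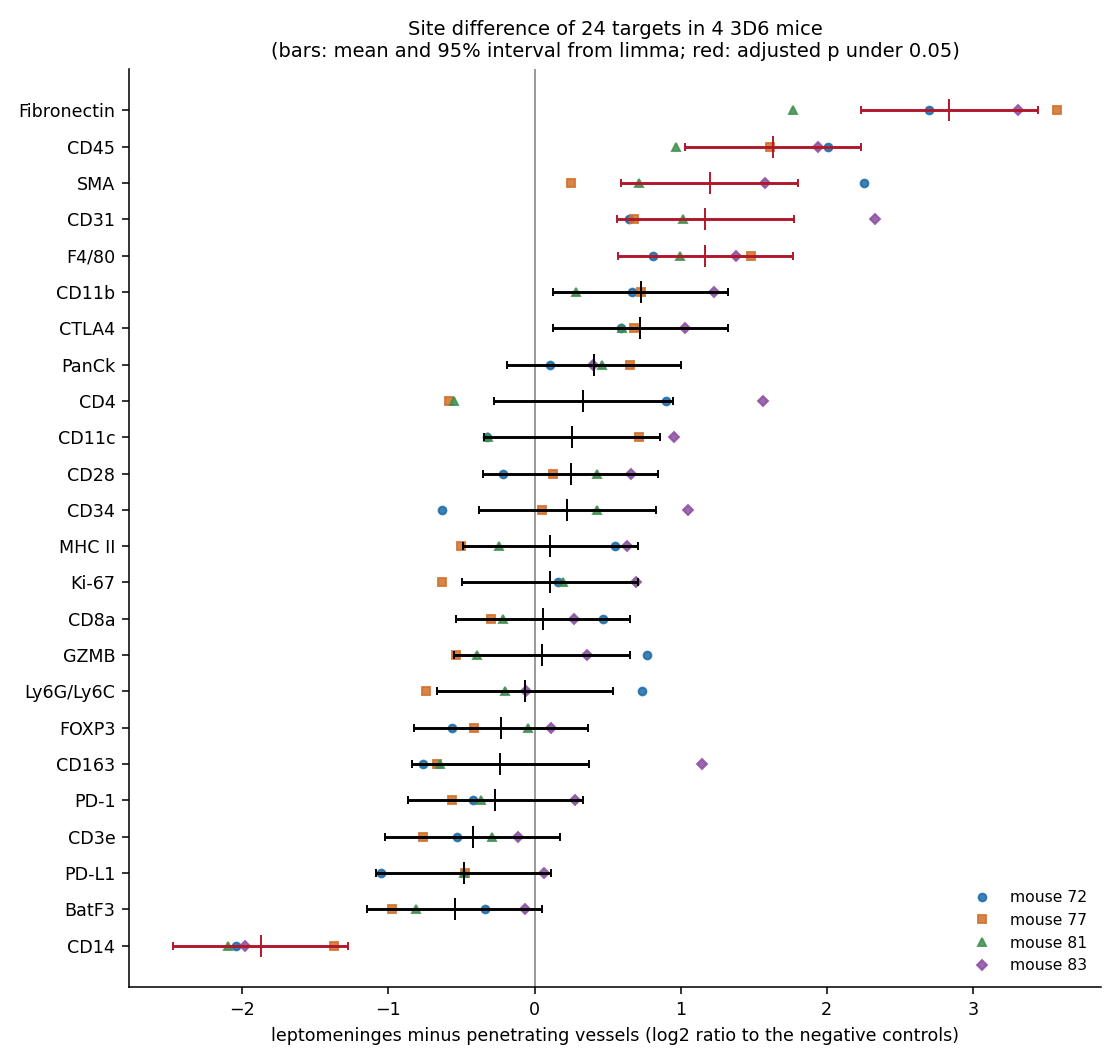
Site difference of 24 targets on the log2 scale (leptomeninges minus penetrating vessels), with the mean and 95% interval from limma and a symbol for each of the 4 3D6 mice. Red bars mark the 6 targets past the adjusted threshold, from fibronectin at 2.84 down to CD14 at -1.87.

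Fibronectin, a glycoprotein of the extracellular matrix made by fibroblasts and other cells and also carried in plasma, had the widest site difference. Its log2 ratio in the leptomeninges was 4.56, 4.15, 2.88 and 5.15 in mice 72, 77, 81 and 83. On penetrating vessels it was 1.86, 0.58, 1.11 and 1.84 in the same order. The lowest leptomeningeal mouse lay above the highest penetrating one. The site means were 4.18 ± 0.96 and 1.35 ± 0.62 (SD, n = 4), or 18.2 and 2.54 times the negative controls, a difference of 2.84 (standard error 0.30, adjusted p = 8.41e-13 from limma), or 7.15-fold with a 95% interval of 4.70 to 10.9. All 4 mice were higher (exact sign-flip permutation test, p = 0.125, the smallest possible). In mice 77 and 83, each of the 12 leptomeningeal regions exceeded every penetrating region. In mouse 72, none of the 12 did, because 1 penetrating region reached 5.96, above the highest leptomeningeal region at 5.67. That region also had the highest CD45 and F4/80 of the penetrating regions of its mouse.

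**Figure D2:**
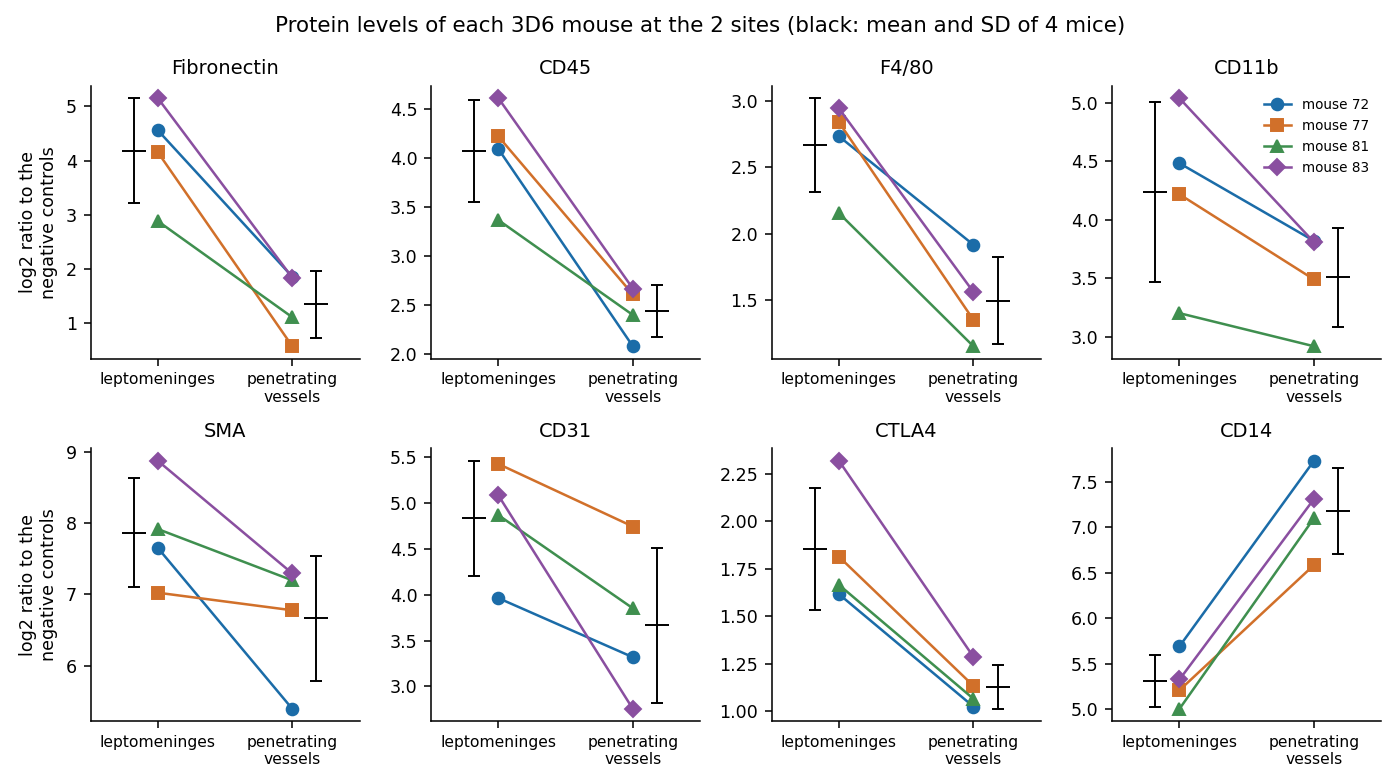
Log2 ratio to the negative controls of 8 proteins at the 2 sites, with a line for each 3D6 mouse and the mean ± SD of the 4 mice in black. All 4 lines fall towards penetrating vessels for 7 of the proteins and rise for CD14, and the y axes differ in range.

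CD45, the phosphatase on the surface of all leukocytes, followed fibronectin. In the leptomeninges it stood at 4.09, 4.22, 3.36 and 4.61 in mice 72, 77, 81 and 83. On penetrating vessels it stood at 2.08, 2.60, 2.39 and 2.66, again without overlap between the sites. The means were 4.07 ± 0.52 and 2.43 ± 0.27 (SD, n = 4). CD45 was higher by 1.63 (standard error 0.30, limma adjusted p = 5.67e-06), a 3.10-fold higher level with a 95% interval of 2.05 to 4.70. Region by region, 36 of 48 leptomeningeal regions exceeded every penetrating region of their mouse. Such regions numbered 33 for fibronectin, 28 for F4/80, 21 each for CD11b and CTLA4, and 14 or fewer for every other target. For CD45, mouse 81 had the smallest difference, at 0.97, and the most overlap, with 6 such regions of 12.

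F4/80, a surface glycoprotein of mouse macrophages, went the same way as CD45. Its leptomeningeal log2 ratio was 2.73, 2.84, 2.15 and 2.94 in mice 72, 77, 81 and 83. Its penetrating log2 ratio was 1.92, 1.36, 1.16 and 1.56, and the sites did not overlap over the mice. F4/80 was higher by 1.17 (standard error 0.30, limma adjusted p = 0.00103), or 2.25-fold. CD11b, an integrin subunit of myeloid cells such as microglia and neutrophils, stood at 4.48, 4.22, 3.20 and 5.04 in the leptomeninges and at 3.82, 3.49, 2.92 and 3.81 on penetrating vessels. Each mouse was higher in the leptomeninges while the ranges over mice overlapped, and the difference of 0.73 (95% interval 0.13 to 1.32) did not pass (adjusted p = 0.0566 from limma). It passed without normalization, at 0.94 (adjusted p = 0.00209), and also in 5 other alternatives.

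CD14, the co-receptor for bacterial lipopolysaccharide on monocytes, macrophages and microglia, was lower in the leptomeninges of every mouse. Its leptomeningeal log2 ratio was 5.69, 5.21, 5.00 and 5.32 in mice 72, 77, 81 and 83. On penetrating vessels it was 7.73, 6.58, 7.10 and 7.31, so that the lowest penetrating mouse lay above the highest leptomeningeal one. CD14 was the most abundant target on penetrating vessels relative to the negative controls, at 145 times their level against 39.5 times in the leptomeninges, although antibodies differ in how they bind and targets are not compared by amount. Its means were 5.31 ± 0.29 in the leptomeninges and 7.18 ± 0.48 on penetrating vessels (SD, n = 4). The site difference came to -1.87 (standard error 0.30, limma adjusted p = 2.90e-07), or 0.273 times with a 95% interval of 0.180 to 0.413. In mouse 83 all 12 penetrating regions exceeded every leptomeningeal region, and over the 4 mice 36 of 48 did. CD14 thus had the opposite sign to F4/80 and CD45 within each of the 4 mice.

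The rest of the myeloid list did not pass the threshold. Of its 6 measured members, F4/80 rose and CD14 fell, CD11b is given above, and the list's median difference was 0.09 beside 0.11 for all targets. Ly6G/Ly6C, antigens of neutrophils and inflammatory monocytes, stood at 2.72, 1.69, 0.36 and 0.89 in the leptomeninges and at 1.98, 2.43, 0.57 and 0.96 on penetrating vessels. Mouse 72 was higher in the leptomeninges and the other 3 lower, for a difference of -0.07 (95% interval -0.67 to 0.53, adjusted p = 0.870 from limma) that turned to 0.15 without normalization. CD163, the haemoglobin scavenger receptor of macrophages, differed by -0.23, with mouse 83 at 1.15 and the other mice from -0.76 to -0.65. The dendritic-cell integrin CD11c differed by 0.26.

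Proteins of antigen presentation gave no target past the threshold in limma, and 0 of 3 had an unadjusted p under 0.05, beside 6 and 9 of all 25 targets. MHC II, which displays peptides for recognition by CD4 T cells, stood at 0.65, 0.05, 0.28 and 0.76 in the leptomeninges and at 0.09, 0.56, 0.52 and 0.13 on penetrating vessels. Mice 72 and 83 were higher in the leptomeninges and mice 77 and 81 lower, for a difference of 0.11 (95% interval -0.49 to 0.71, adjusted p = 0.83 from limma). BatF3, a transcription factor of cross-presenting dendritic cells, stood at 2.53, 2.26, 2.12 and 2.33 in the leptomeninges and at 2.86, 3.24, 2.93 and 2.39 on penetrating vessels. It was lower in each of the 4 mice, at -0.55 (95% interval -1.15 to 0.05, adjusted p = 0.181 from limma).

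**Figure D3:**
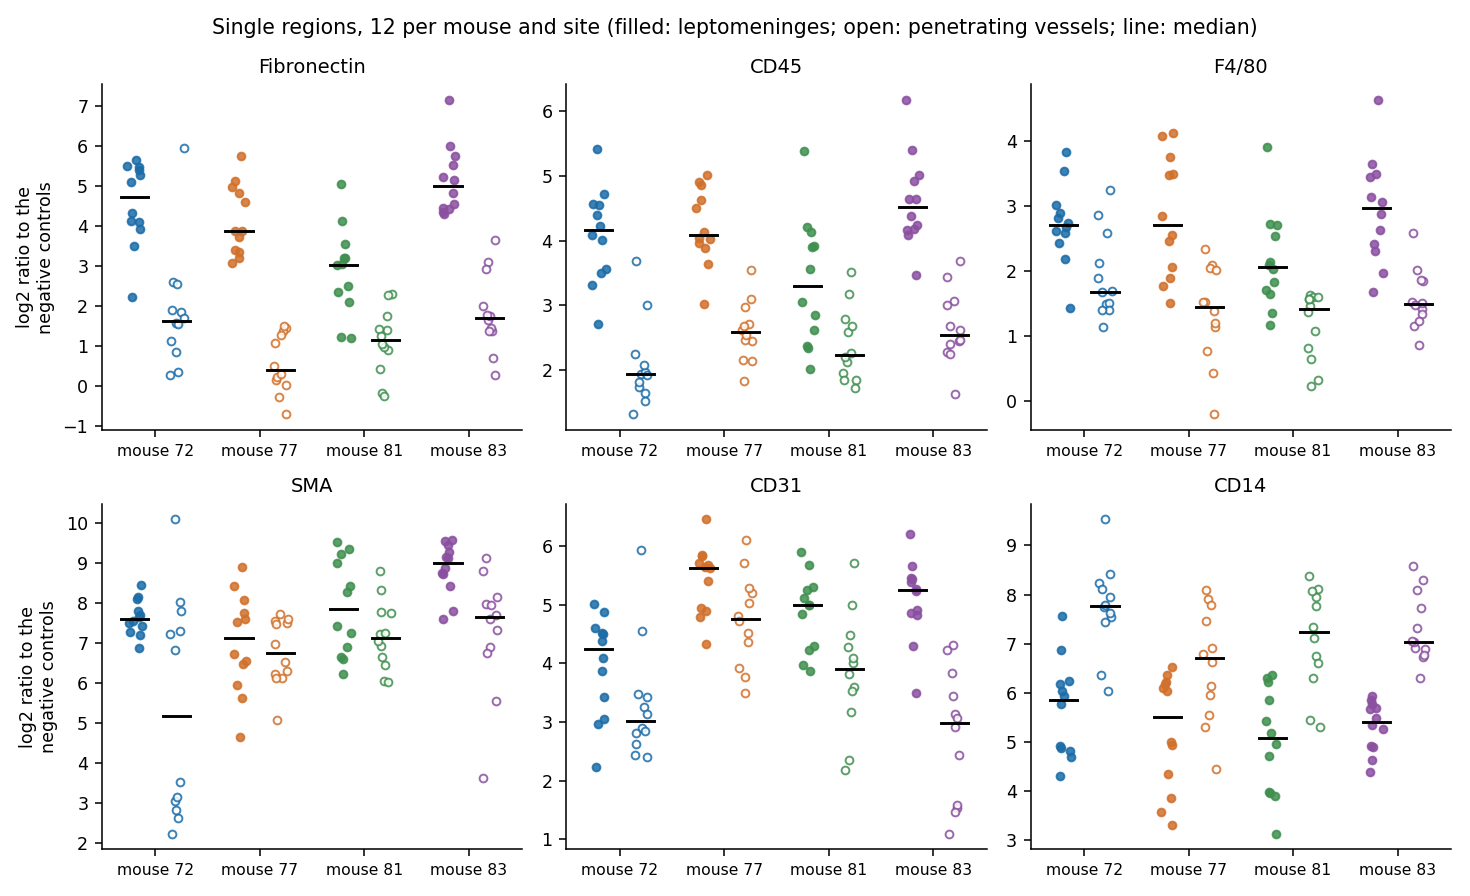
Log2 ratio to the negative controls in single regions, 12 per mouse and site, for the 6 targets past the threshold; filled symbols are leptomeninges, open symbols are penetrating vessels and lines are medians. The sites separate fully for fibronectin in mice 77 and 83 and for CD14 in mouse 83, and for CD45 they overlap in part in every mouse. SMA on penetrating vessels of mouse 72 falls into a group of 6 regions at 2.23 to 3.54 and another of 6 at 6.84 to 10.1.

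In the vessel wall, SMA and CD31 were higher in the leptomeninges and CD34 did not pass. SMA stood at 7.65, 7.02, 7.92 and 8.87 in the leptomeninges of mice 72, 77, 81 and 83. On penetrating vessels it stood at 5.40, 6.78, 7.20 and 7.29, and the ranges over mice overlapped although each mouse was higher in the leptomeninges. The difference of 1.20 (standard error 0.31, adjusted p = 0.00103 from limma), or 2.29-fold, ran from 0.25 in mouse 77 to 2.25 in mouse 72. Pooled over the mice, the SD between regions was 1.67 on penetrating vessels and 0.95 in the leptomeninges, but the mice were split. It was higher on penetrating vessels in mice 72 (2.73 against 0.44) and 83 (1.49 against 0.65). In mice 77 (0.83 against 1.25) and 81 (0.86 against 1.20) it was lower there. In mouse 72 the penetrating regions ranged over 233-fold, with 6 of them at or below 3.54 and the other 6 at or above 6.84. Averaging the ratios before taking logs reduced the difference to 0.72 (adjusted p = 0.0906 from limma), and without mouse 72 it was 0.85 (adjusted p = 0.130).

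CD31, the adhesion molecule of endothelial cells, stood at 3.96, 5.43, 4.87 and 5.08 in the leptomeninges. On penetrating vessels it stood at 3.32, 4.75, 3.85 and 2.76, with mouse 83 lowest. CD31 was higher by 1.17 (standard error 0.30, limma adjusted p = 0.00103), or 2.25-fold, with a difference of 2.33 in mouse 83 against 0.65 to 1.02 in the others. Without mouse 83 the difference was 0.78 (adjusted p = 0.0528 from limma), and the count of higher targets went from 5 to 3 because SMA also missed the threshold (1.07, adjusted p = 0.109). CD34, carried by endothelial cells and progenitors, differed by 0.22, higher in 3 of 4 mice, with a 95% interval of -0.38 to 0.83. When the variances were not moderated across targets, neither SMA (adjusted p = 0.183) nor CD31 (adjusted p = 0.166) passed in the linear model of 4 mice, while fibronectin, CD45, F4/80 and CD14 did (adjusted p = 0.0318 each).

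None of the 8 T-cell proteins passed the adjusted threshold in limma, and 1 of them, CTLA4, had an unadjusted p under 0.05, beside 6 and 9 of all 25 targets. Counts over so few members set none of these lists apart from the panel. CTLA4, which restrains T cells by taking the ligands of CD28, stood at 1.62, 1.81, 1.66 and 2.32 in the leptomeninges and at 1.02, 1.13, 1.07 and 1.29 on penetrating vessels. The sites did not overlap and the 4 differences were close to each other, with an SD of 0.21. Their mean of 0.72 (95% interval 0.13 to 1.32, 1.65-fold) missed the threshold with the shared spread of limma (adjusted p = 0.0566) and passed in 9 of 21 alternatives, among them the housekeepers (adjusted p = 0.0392), no normalization (0.00209), medians (0.0381) and no moderation of the variances (0.0318). Calibration, with the factors of the negative controls included, also had its largest mean effect among the 25 targets on CTLA4, at 0.58, adding 0.48 to 0.82 in single mice. PD-L1 (0.57) and fibronectin (0.54) were close. With these factors removed, CTLA4 differed by 0.15 (adjusted p = 0.579 from limma).

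GZMB, the protease of cytotoxic granules, stood at 5.82, 4.47, 4.78 and 5.29 in the leptomeninges and at 5.05, 5.01, 5.17 and 4.93 on penetrating vessels. Mice 72 and 83 were higher in the leptomeninges and mice 77 and 81 lower, and the mean difference was 0.05 (95% interval -0.55 to 0.65, adjusted p = 0.870 from limma). CD28, the co-stimulatory receptor of T cells, stood at -1.15, -0.10, -1.17 and -0.94 in the leptomeninges and at -0.93, -0.23, -1.59 and -1.60 on penetrating vessels. It was higher in 3 of 4 mice, by 0.25 (95% interval -0.35 to 0.85, adjusted p = 0.576 from limma). CD4, the co-receptor of helper T cells, stood at -0.92, -0.68, -1.78 and -0.08 in the leptomeninges and at -1.82, -0.09, -1.24 and -1.64 on penetrating vessels. Its difference of 0.33 (95% interval -0.28 to 0.95, adjusted p = 0.503 from limma) joined mice at 0.90 and 1.56 with mice at -0.58 and -0.55.

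Among the other T-cell proteins, CD3e, a chain of the T-cell receptor complex, was lower in the leptomeninges of all 4 mice, by 0.12 to 0.76, and its mean of -0.42 did not pass (adjusted p = 0.336 from limma). The CD8 chain CD8a differed by 0.06, the inhibitory receptor PD-1 by -0.27 and FOXP3, the transcription factor of regulatory T cells, by -0.23. PD-L1, the ligand of PD-1, was lower in 3 of 4 mice. Its mean of -0.49 had a 95% interval of -1.08 to 0.11 and did not pass in limma (adjusted p = 0.252). With the calibration factors removed it differed by -1.05 and passed (adjusted p = 0.0160). The checkpoint list (PD-1, PD-L1 and CTLA4) had a median difference of -0.27, and 0 of 3 passed in limma, with CTLA4 alone under an unadjusted p of 0.05, beside 6 and 9 of all 25 targets.

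The keratin marker PanCk, of epithelial cells, was higher in all 4 mice, by 0.10 to 0.66, with a mean of 0.41 (adjusted p = 0.346 from limma). Ki-67, of cycling cells, differed by 0.10.

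The housekeepers moved in opposite directions between the sites. Histone H3, a protein of chromatin, was higher in the leptomeninges of each mouse, by 0.59, 0.55, 1.46 and 1.01 in log2 ratio. GAPDH, an enzyme of glycolysis, was lower in each, by 1.68, 1.34, 1.07 and 1.00. The mean differences were 0.90 ± 0.42 and -1.27 ± 0.31 (SD, n = 4), and the exact sign-flip permutation test gave its smallest p, 0.125, for both. S6, a ribosomal protein, differed by 0.13 ± 0.34 (SD, n = 4). With the calibration factors removed, Histone H3 differed by 1.49 ± 0.89, GAPDH by -1.27 ± 0.36 and S6 by 0.32 ± 0.71 (SD, n = 4). Mean nuclei per region were higher in the leptomeninges of 3 of 4 mice, by 0.16 ± 0.43 (SD, n = 4) on the log2 scale (exact sign-flip permutation test, p = 0.375).

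Dividing by Histone H3 alone gave 1 higher and 9 lower targets, and left fibronectin at 1.93 (adjusted p = 1.79e-05 from limma) and CD14 at -2.78 past the threshold. On that scale CD45 stood at 0.73 (adjusted p = 0.0868), SMA at 0.29, CD31 at 0.27 and F4/80 at 0.26, none of them past it. Dividing by GAPDH alone made 23 of 25 targets higher in the leptomeninges and CD14 the only one lower, at -0.60 (adjusted p = 0.0457 from limma). Fibronectin and CD14 thus kept their direction and their call under each housekeeper, also under S6 at 2.71 and -2.0. The part of cell content or tissue type in these differences, those of fibronectin and CD14 included, was not tested beyond these scalings. A housekeeper is no marker of meningeal or neural tissue, so the scalings cannot decide on tissue type.

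**Figure D4:**
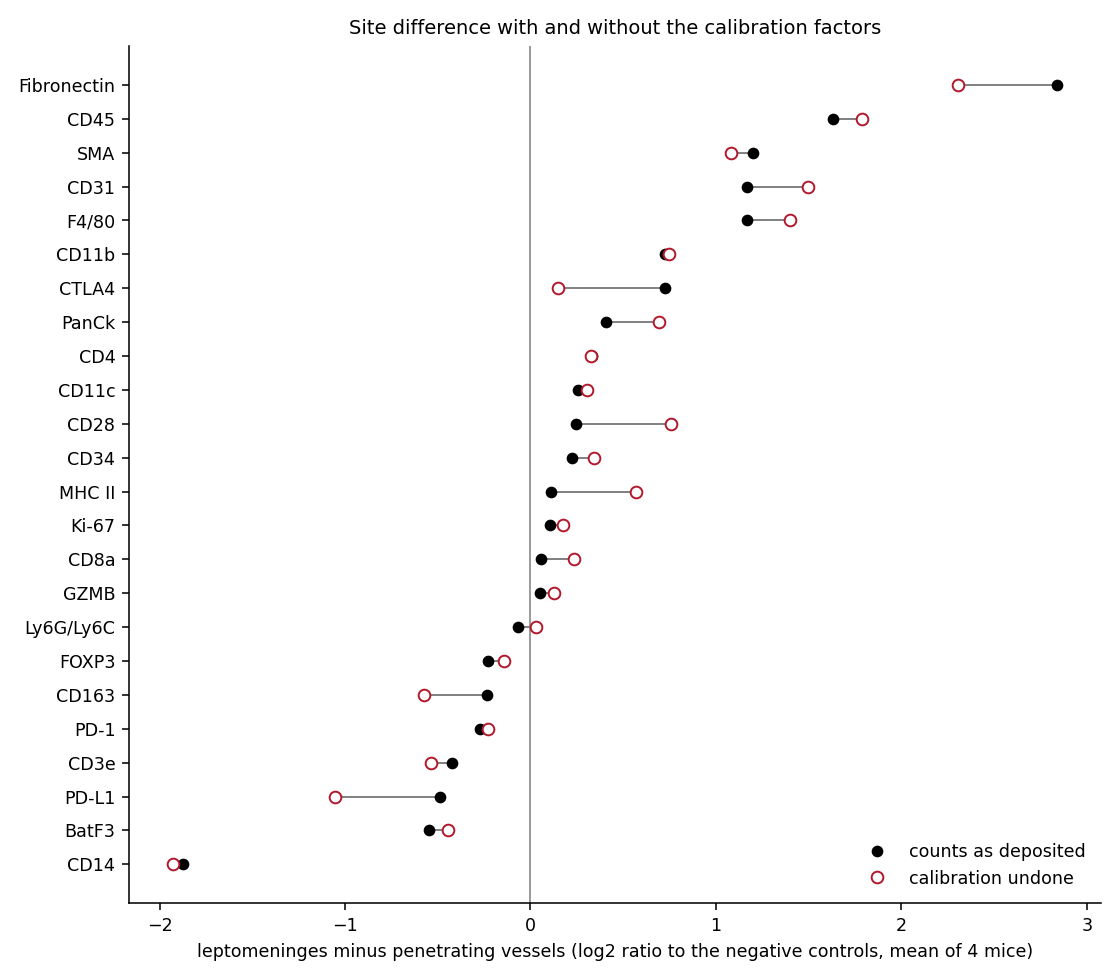
Site difference of 24 targets (log2 scale, mean of 4 3D6 mice) from the counts as deposited, in black, and with the calibration factors removed, as open symbols. CTLA4 moves from 0.72 to 0.15 and PD-L1 from -0.49 to -1.05, while CD45 and CD14 move little.

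With the calibration factors removed, the site difference of fibronectin was 2.30, of CD45 1.79, of CD31 1.49 and of F4/80 1.4, each past the threshold in limma. SMA, at 1.08, missed it (adjusted p = 0.0628), so 4 targets were higher and 2 lower. CD14 stood at -1.93 and PD-L1 joined it. Since mice 77 and 81 had the same inferred factors, the fit was also run on 3 sets of factors in place of 4 mice, and again 5 targets were higher and 1 lower. The same counts came from the 3 instrument runs, of which 1 held mice 81 and 83 and the others 1 mouse each.

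Within a site, leukocyte and macrophage proteins varied together from region to region. These are Pearson correlations of log2 ratios over 48 regions, centred on the mean of their mouse, and the ratios share their negative controls. In the leptomeninges, CD45 had an r of 0.77 with CD11b and 0.70 with F4/80. On penetrating vessels these were 0.61 and 0.56, and each was positive in 4 of 4 mice. Fibronectin had an r of 0.71 with CD45 on penetrating vessels (0.59 to 0.81 in single mice) and of 0.35 in the leptomeninges (-0.09 to 0.81). The regions highest in CD45, F4/80 and fibronectin were the same in the leptomeninges of mice 81 and 83, and on penetrating vessels of mice 72 and 83.

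SMA and CD31 had an r of 0.30 in the leptomeninges and 0.41 on penetrating vessels, and SMA with CD45 had -0.19 and 0.11. With division by the housekeepers these were 0.65 and 0.57 for CD31, and 0.24 and 0.43 for CD45, so the sign with CD45 in the leptomeninges depended on the denominator. The r of CD14 with GAPDH was 0.80 in the leptomeninges (0.50 to 0.87 in single mice) and 0.41 on penetrating vessels, while with CD45 it was -0.27 and -0.07. The link to GAPDH was not particular to CD14. CTLA4 had an r with GAPDH of 0.55 and -0.09, and CD11b of 0.27 and 0.43, while fibronectin, SMA and CD31 were negative at both sites. With division by the housekeepers, which include GAPDH itself, the r of CD14 with GAPDH was 0.83 and -0.02.

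The site contrast of 3D6 mice was set beside that of the 3 IgG mice, given as leptomeninges minus penetrating vessels in both. The contrasts differed for 7 of 25 targets (28.0%) in limma. The signed difference was higher in 3D6 mice for fibronectin, CD45, CD11b, CD28, Ly6G/Ly6C and F4/80, and lower for SMA. Most of the panel leaned the same way as the higher targets. Among the targets not called, only CTLA4, CD163, CD14 and CD8a were lower in 3D6 mice. The middle target of the panel, BatF3, stood at 0.63 (3D6 minus IgG). CD14 was alike in direction, at -1.87 ± 0.34 (SD, n = 4) in 3D6 and -1.72 ± 1.21 (SD, n = 3) in IgG mice, and the difference between these had a 95% interval of -1.32 to 1.01.

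SMA differed between the sites by 3.39 ± 1.46 (SD, n = 3) in IgG mice, with 2.99, 5.02 and 2.18 in mice 29, 37 and 49. The 3D6 contrast was smaller by 2.20 (standard error 0.69), with an adjusted p of 0.0417 in limma and an exact permutation p of 0.0857 over 35 splits, and 1 3D6 mouse, at 2.25, lay above the lowest IgG mouse. Without IgG mouse 37 the 3D6 minus IgG value was -1.38 and did not pass (adjusted p = 0.0641 in limma). Fibronectin differed by 0.78 ± 0.22 (SD, n = 3) in IgG mice, less in each than in any 3D6 mouse. Its contrast was larger in 3D6 mice by 2.06 (standard error 0.44), with an adjusted p of 0.0177 in limma and an exact permutation p of 0.0571. CD11b went from -0.63 ± 0.34 in IgG mice to 0.73 ± 0.39 in 3D6 mice without overlap. Its difference was 1.36 (adjusted p = 0.0177 from limma, exact permutation p = 0.0286). The groups were also without overlap for the other called targets except SMA, and for some not called, such as PanCk, CD31 and FOXP3.

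**Figure D5:**
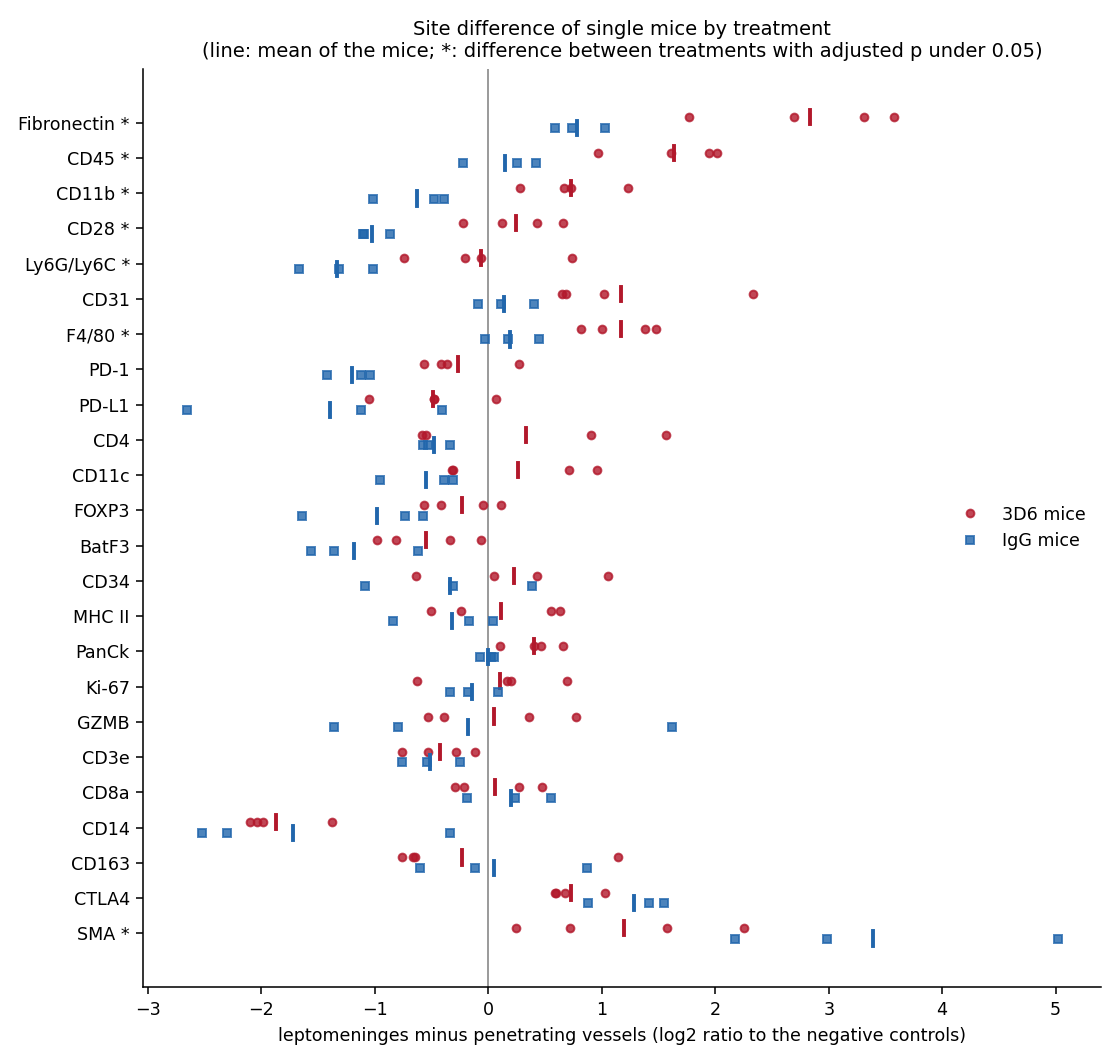
Site difference of 24 targets on the log2 scale in single 3D6 mice (circles, n = 4) and IgG mice (squares, n = 3), with lines at the group means and stars at the 7 targets whose contrast differed in limma. Every starred target but SMA lies right of all IgG mice in each 3D6 mouse, and SMA lies mostly left of them. Some targets without a star, such as PanCk, CD31 and FOXP3, also lie right of all IgG mice.

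CD45 and F4/80 stood near 0 in IgG mice, at 0.15 and 0.19, and their contrasts were larger in 3D6 mice by 1.48 and 0.97. CD28 and Ly6G/Ly6C were lower in the leptomeninges of all 3 IgG mice, at -1.02 and -1.33, and at 0.25 and -0.07 in 3D6 mice, so their signed contrasts differed by 1.27 each, with the wider gap between sites in IgG mice. PD-1 did not pass (0.93, adjusted p = 0.0524 from limma), nor did CD31 (1.03, adjusted p = 0.120). These calls depended on the denominator, since with the housekeepers SMA was the only target to pass (-3.08), and fibronectin shrank to 1.17, CD45 to 0.60, CD11b to 0.47, CD28 and Ly6G/Ly6C to 0.38 and F4/80 to 0.089. Without normalization fibronectin was the only target to pass (2.40). Without IgG mouse 29, and also with the calibration factors removed, 0 targets passed in limma, with 8 and 6 at an unadjusted p under 0.05, and 0 and 2 at an exact permutation p under 0.05. The smallest exact p without that mouse is 0.0667.

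Each IgG mouse shared an instrument run with 3D6 mice, IgG mouse 49 with mice 81 and 83, 37 with 77 and 29 with 72. Within runs the 3D6 minus IgG value had 1 direction in 3 of 3 runs for each of the 7 targets. These targets were called on the same mouse values, so their direction within runs is no separate test. PD-1, PanCk, CD31, FOXP3 and CTLA4, which were not called, also had 1 direction in 3 of 3 runs. In the order of those runs the 3D6 minus IgG value was 1.80, 2.99 and 1.67 for fibronectin, and 1.04, 1.36 and 2.23 for CD45. For SMA it was -1.03, -4.77 and -0.74, so the run of IgG mouse 37 held most of that difference. With run as a term in limma, which leaves few degrees of freedom, 0 targets passed, and the same 7 had an unadjusted p under 0.05. Fibronectin stood at 2.12 (adjusted p = 0.0596) and SMA at -2.06 (adjusted p = 0.0827) in that fit.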

How the data were processed

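Per the labels, GeoMx protein tags were read on formalin-fixed brain sections. Their thickness is 5 μm in the labels and 10 μm in the study's methods. The deposited counts had been multiplied by the authors with a calibration factor per probe and with a positive-control ratio per region, and are no longer whole. The authors' normalized scores, and the tables derived from them, were not used. A further mouse, removed by the authors, was not analysed here.

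Levels were log2 counts minus the mean log2 count of the 3 negative controls of the region, without pseudocount or filter, averaged per mouse and site. Each 3D6 mouse had 12 regions per site, and the 3 IgG mice had 70 regions in all. Regions of a mouse were not treated as replicates. Paired site differences of 4 mice were tested with limma 3.58.1 in R 4.3.3 (intercept, moderated variances, two-sided), adjusted by Benjamini-Hochberg across the 25 targets and called under 0.05. Moderation gave nearly the same standard error to all targets (0.30 to 0.31, prior degrees of freedom 171). Contrasts between treatments used limma on 7 mice. Exact permutation tests covered 16 sign patterns or 35 splits. All targets were tested and, but for 1 that is not reported here, named, and those past the threshold, the 3 largest differences each way and the proteins the paper names got full values. Calibration factors were found as the steps that make values whole. Scripts were tested on simulated data. The 24 alternative analyses changed normalization, averages, filters, replication or adjustment. Of these, 5 were chosen after seeing the data (calibration factors removed, sets of factors as replicates, each housekeeper alone), as were leaving out each mouse and adding run as a term between treatments. Members and lists were chosen with earlier results of these data known. The p-values measure the spread between these mice, and for the limma site differences mostly a spread pooled over the targets. The SD of the 4 mouse differences ran from 0.2077 to 1.355 over the targets. Without moderation the standard error was 0.4002 for fibronectin, 0.4462 for SMA and 0.1039 for CTLA4. Python 3.11.15 with numpy 2.4.6 and pandas 2.3.3 was used.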

Additional observations from a re-analysis of the deposited data

Results flagged for a closer look

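In groups of 4 mice, 75 sets of values were searched for a mouse far from the other 3, and 3 were found; chance gives about 1 in 20. CD163 had a site difference of 1.15 in mouse 83, against -0.76 to -0.65 in the others, and a penetrating level of 0.86 in mouse 77, against -1.12 to -0.85. CD163 had under 10 counts in 55 of 96 regions. CD14 had a site difference of -1.38 in mouse 77, against -2.10 to -1.98.

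The site differences of 3D6 and IgG mice differed for 7 targets in limma (3D6 minus IgG): fibronectin by 2.06, CD45 by 1.48, CD11b by 1.36, CD28 by 1.27, Ly6G/Ly6C by 1.27, F4/80 by 0.97 and SMA by -2.20. CD28 lay below the negative controls in every 3D6 mouse at both sites.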

How the results depend on the processing

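Fibronectin and CD14 kept direction and call in all 24 alternatives, at 1.93 to 4.11 and -2.78 to -0.60 on the log2 scale. CD45 and F4/80 missed the threshold with Histone H3 alone and in no other alternative, CD31 in 4 and SMA in 10 of 24. The count of 5 higher targets became 3 without the replicate block (the sites of a mouse unpaired), 8 with all regions entered and the mouse as a random block, 1 with Histone H3 alone and 23 with GAPDH alone. Leaving out each mouse gave 3 to 5 higher and 1 lower target. The count of 1 lower target became 2 in SD units, 2 with the calibration factors removed, 5 with all regions entered and 9 with Histone H3 alone. The cause was not tested. Leaving out the 17 regions of few nuclei kept 5 and 1, and no region had a background over 10 times the median.

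The count of 7 contrasts that differ from IgG mice became 1 with the housekeepers, 1 without normalization, 3 with medians, 0 with the calibration factors removed, 0 with run as a term, and 0 to 6 when 1 of the 7 mice was left out. It was 3 without 3D6 mouse 81, 4 without mouse 83, and 3 without IgG mouse 49.

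Small differences changed sign. Leaving out each mouse gave -0.080 to 0.18 for CD8a, -0.19 to 0.24 for GZMB, -0.091 to 0.35 for Ki-67, -0.066 to 0.31 for MHC II, -0.076 to 0.64 for CD4, -0.051 to 0.51 for CD34 and -0.34 to 0.16 for Ly6G/Ly6C. With medians over regions CD8a stood at -0.017 and Ki-67 at -0.024, and with runs as replicates Ki-67 at -0.0084. Ly6G/Ly6C turned to 0.013 with the housekeepers, 0.15 without normalization, 0.032 with the calibration factors removed and 0.067 with sets of factors as replicates. The median of all targets was 0.11, and 0.33 without normalization, 0.19 with the housekeepers and 0.23 with the calibration factors removed. Depth limits PD-1, CD4, CD163, CD28 and FOXP3, below the negative controls, whose median counts per region were 4.78 to 8.25 by site.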

Other observations

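The 2 regions of a mouse that shared an instrument lane, 1 of each site, were compared for each target centred on the mean of their mouse and site. Over 48 such pairs the correlation had a median of 0.03 over the 25 targets, with a range of -0.24 to 0.41. The 16 values of 3D6 mice that were not whole multiples of their calibration factor all equalled 1.085 times the positive-control factor of their region, whatever the probe.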
